A study of Ovis aries with 9 samples.

Results

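Mitochondrial ribosomal protein genes were followed in the ovaries of 9 ewes by RNA-Seq. They were taken as every row of the deposited count table whose symbol begins with MRPL or MRPS followed by a number, which gave 80 of 27174 rows. The Dorset group held 3 ewes (D4, D5 and D6), a breed whose genotype the labels give as wild type. The Han BB group held 3 Small Tail Han ewes (W1, W2 and W4) homozygous for the B allele of FecB, a fecundity allele of the BMP receptor gene BMPR1B, and the Han ++ group held 3 Small Tail Han ewes (W6, W7 and W8) without it. All ewes had received a progestagen sponge and pregnant mare serum gonadotropin to synchronize estrus, and whole ovaries bearing ovulation points were removed after a later spontaneous estrus. Each library came from 1 ewe. Dorset and Han ewes differ in breed as well as in fecundity, so Han BB against Han ++ is the comparison that asks about FecB within a breed.

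Mitochondria keep ribosomes of their own, which translate only the few mRNAs of the mitochondrial genome, all of them subunits of the respiratory chain and ATP synthase. The ribosomal RNAs are encoded inside the organelle, whereas every protein of the mitoribosome is encoded in the nucleus and imported. Some of these proteins descend from the bacterial ancestor of mitochondria and others were added later. Ovaries depend on this machinery in several cell types: oocytes are rich in mitochondria, luteal and thecal cells carry out the first step of steroid synthesis there, and variants of several mitochondrial translation genes are known from inherited ovarian insufficiency in people.

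The 80 rows carried 75 symbols, of which 72 matched a sheep gene in RefSeq (assembly ARS-UI_Ramb_v3.0), each of them protein coding. The unmatched symbols were MRPS16, MRPS17 and MRPS36. For 5 symbols, MRPL9, MRPL16, MRPL19, MRPL24 and MRPL32, the table held a second row, written with a number suffix (MRPL9.1). For MRPL9, MRPL19 and MRPL32 nearly all reads lay in 1 of both rows: MRPL9.1 had 700 to 2155 reads per library and MRPL9 had 0 to 10. For MRPL24 the main row had 480 to 1230 reads and MRPL24.1 had 9 to 81, and for MRPL16 the counts were 27 to 178 in MRPL16 and 461 to 1055 in MRPL16.1, so how the reads of these symbols divide between rows is uncertain.

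After edgeR's expression filter, 76 of the 80 rows were tested among 16871 rows in all. The 4 others were MRPL9, MRPL19.1 with at most 6 reads, MRPL32 with a single read in W6, and MRPL23, a large subunit protein with 0 reads in all 9 libraries. For MRPL23 a count of 0 allows up to 3 reads in a library, which is between 0.135 and 0.292 CPM (read counts scaled to library size), and this limit covers counting error only. The tested rows comprised 31 large subunit proteins with a bacterial counterpart, 19 large subunit proteins found only in mitochondria, 15 small subunit proteins with a bacterial counterpart and 10 small subunit proteins found only in mitochondria. The symbol does not always give the subunit: MRPS30 and MRPS18A sit in the large subunit and were counted there, MRPS18B and MRPS18C in the small one. MRPS36 was named as a ribosomal protein and later assigned to the 2-oxoglutarate dehydrogenase complex, so it was kept apart from the subunit groups.

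Total counts ranged from 10803913 to 20992535 per library. Libraries W4 and D6 were closest to each other although they come from different breeds, with a Spearman correlation of 0.978 across genes between them. With the other 7 libraries W4 correlated at 0.87 to 0.948 and D6 at 0.899 to 0.955, in both cases lowest with D4. Each comparison was therefore also made without W4 and D6. D4 was also unusual, since 14.9% of its reads lay in a single row, LOC101101865. Markers of granulosa, luteal and thecal cells and of oocytes were detected, and no summed marker list placed both W4 and D6 outside the other 7 libraries. Ciliated epithelium markers, which mark oviduct or surface epithelium, summed to 588 CPM for W4 and 240 for D6, with the others at 82.5 to 332 CPM. In whole ovary RNA, fewer cells of a type and less RNA per cell cannot be told apart.

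Mitoribosomal protein mRNA as a whole varied more between ewes than between groups. Summed over the 80 rows, it came to 3284, 2032 and 2334 CPM in D4, D5 and D6. The Han BB ewes W1, W2 and W4 had 2913, 2944 and 2211 CPM, and the Han ++ ewes W6, W7 and W8 had 2498, 2186 and 2496 CPM. The mean was 2550 ± 654 CPM for Dorset, 2689 ± 415 for Han BB and 2394 ± 180 for Han ++ (SD, n = 3), so the groups overlapped fully. The Dorset ewes alone spanned the whole 1.62-fold range on this scale (TMM factors). Scaled to library totals, the extremes were 2 Han BB ewes, W1 at 3003 and W4 at 2085 CPM, with D4 at 2880 and D5 at 2172 CPM. D4 held the highest value of 33 of the 76 tested rows, whereas W4 held the lowest of 26 and D5 the lowest of 24. The Han ++ ewes were the most alike and seldom held an extreme, with W6 highest for 0 rows and W7 for 1.

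**Figure D1:**
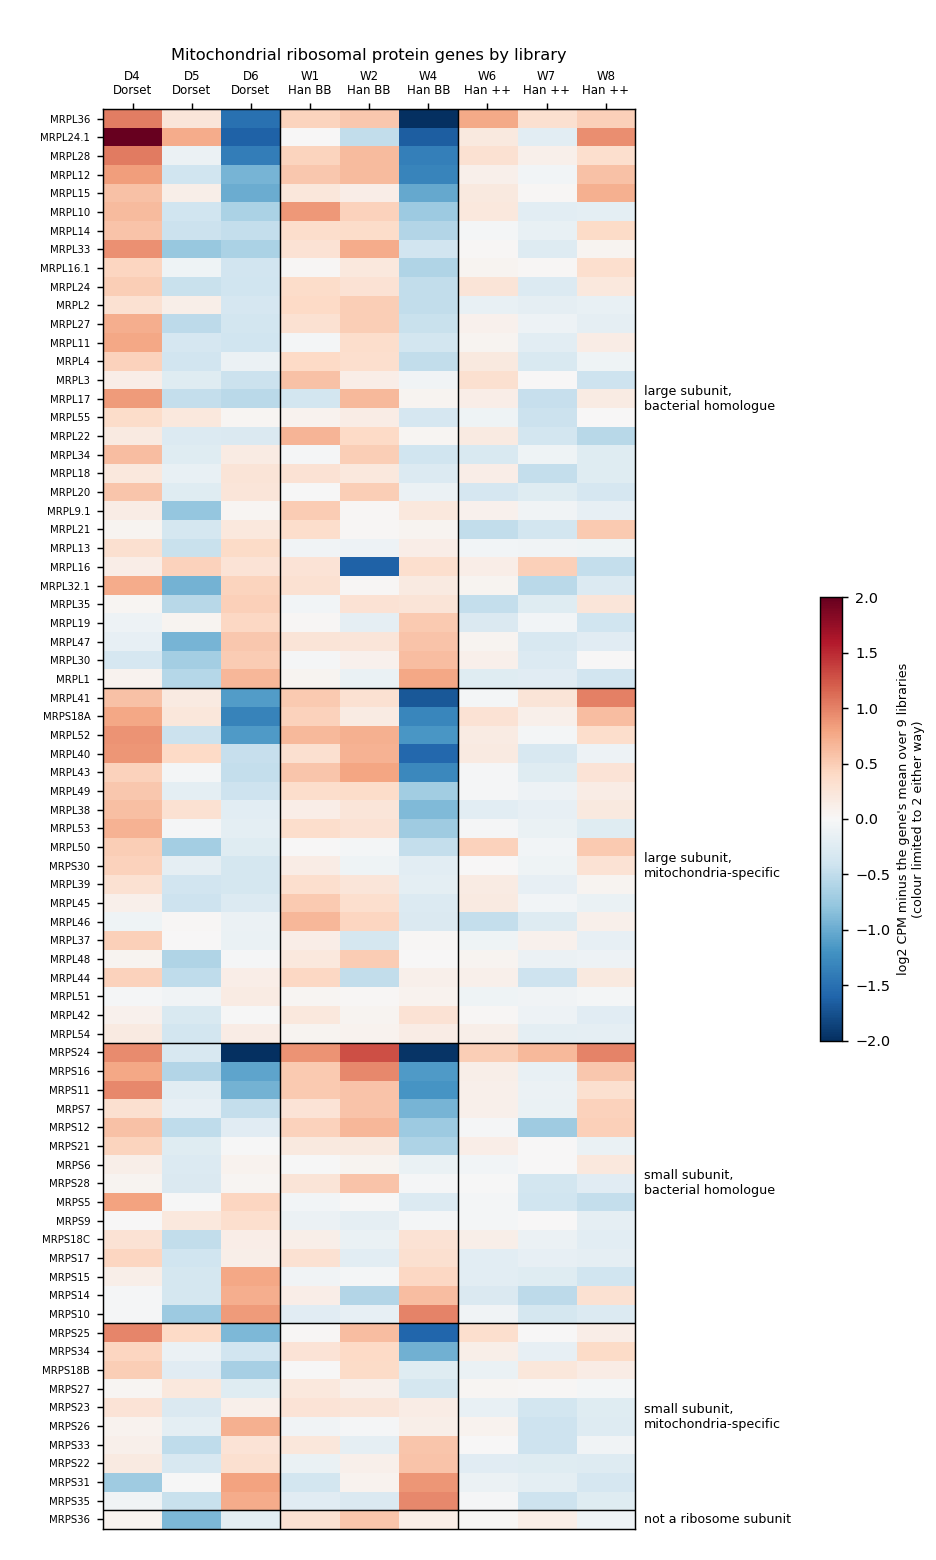
Level of each of the 76 tested rows in each library, as log2 CPM minus the mean of that row over the 9 libraries, with rows grouped by subunit and origin. Red is above and blue below the row's mean. D4 is mostly red (median 0.43), D5 mostly pale blue (median -0.29), and W4 and D6 share the same rows of dark blue at the top of each group and red at the bottom.

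Large and small subunit rows were also summed apart. Large subunit rows, MRPS30 and MRPS18A among them, ranged from 1329 CPM in D5 to 2230 CPM in D4, with W1 at 2017, W2 at 2001 and W4 at 1358 CPM. Small subunit rows ranged only from 694.5 CPM in D5 to 1039 CPM in D4. Small subunit means were 879 ± 42.95 CPM for Han BB, 769 ± 52.8 for Han ++ and 876 ± 173 for Dorset (SD, n = 3). On the TMM scale the 3 Han BB ewes (837 to 922.5 CPM) all lay above the 3 Han ++ ewes (709 to 805 CPM). This was not so for the large subunit, where W4 was below every Han ++ ewe. The small subunit separation depended on the scale, since with library totals W4 falls below W6 (TMM factors 0.9437 and 1.051).

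The mRNAs that mitoribosomes translate were low together with the ribosomal protein mRNAs in D5, but not in W1. The 13 mRNAs of the mitochondrial genome summed to 18370 CPM in D4, 7016 in D5 and 13460 in D6. They came to 12440, 19600 and 17960 CPM in W1, W2 and W4 and to 17990, 22380 and 19990 CPM in W6, W7 and W8. On the TMM scale D5 was thus lowest for both sums, while W1, which was among the highest for mitoribosomal protein mRNA, was the second lowest for mitochondrial mRNA. ND6, the mRNA encoded on the opposite strand to the others, made up 4.20% of these reads in W4 and 7.73% in D6 against 0.247% to 1.56% in the other 7 libraries. The strand setting of the counting is not given in the sources used here.

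**Figure D2:**
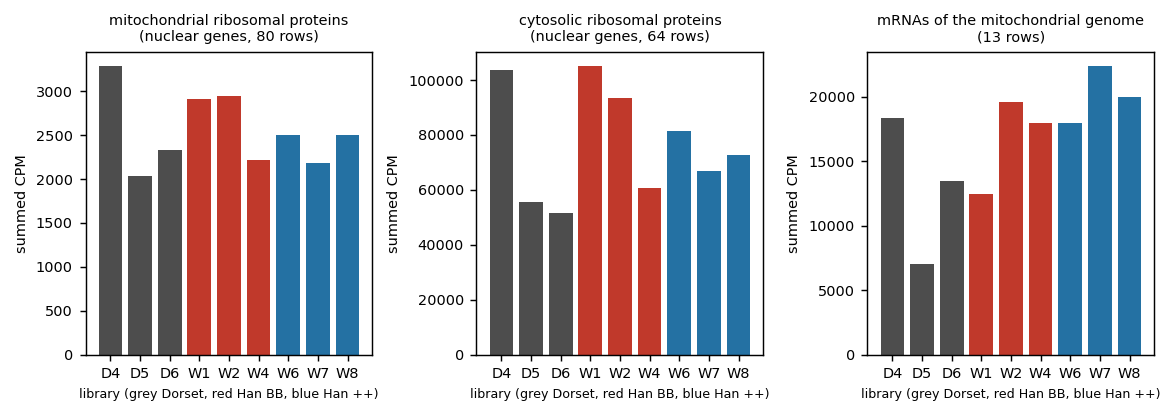
Summed CPM in each library of the 80 mitochondrial ribosomal protein rows, 64 cytosolic ribosomal protein rows and the 13 mRNAs of the mitochondrial genome, 1 bar per ewe. D5 is the lowest bar for the first and the last sum (2032 and 7016 CPM), and W1 is high for both kinds of ribosomal protein but low for mitochondrial mRNA (12440 CPM).

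Compared with the Dorset group, 0 of the 76 genes were called in the Han BB group, where a call needs a change of over 1.5-fold in either direction and, by the quasi-likelihood test of edgeR, an adjusted p under 0.05 (Benjamini-Hochberg over all 16871 rows). Among all rows tested, edgeR called 0%. At an unadjusted p under 0.05, 0 of the 76 were higher (2.1% of all rows) and 0 were lower (2.89%). DESeq2 and limma voom also called 0 of the 76, against 38 and 0 of all rows. At an unadjusted p under 0.05 DESeq2 placed 0 of the genes (5.4% of all rows) and limma voom 10, or 13.2% (11.5% of all rows). DESeq2 was run without the expression filter, so in each comparison of 2 groups its figures cover 79 member rows and 24699 rows in all. The log2 fold change was above 0 for 45 of the 76 (59.2%), against 49.4% of all rows, with a median of 0.08 against -0.0058. The median was 0.27 without D4, -0.077 without D5 and -0.021 without W2, so its sign changed with single ewes of either group. With all 9 libraries, limma voom with quality weights gave a median of 0.30, against 0.011 for all rows.

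MRPS36, the dehydrogenase complex member, came closest to a difference between these groups. It had 15.1, 7.71 and 12.4 CPM in D4, D5 and D6, and 17.7, 21.0 and 15.8 CPM in W1, W2 and W4. Each Han BB ewe was above each Dorset ewe, but D4 and W4 lay close together. The means were 18.2 ± 2.64 and 11.7 ± 3.73 CPM (SD, n = 3), a log2 fold change of 0.63 ± 0.30 (SE) with an adjusted p of 0.977 in edgeR (unadjusted 0.0612) and 0.324 in limma voom. Without W4 and D6 the log2 fold change was 0.78, with an adjusted p of 0.668. MRPS36 was the only 1 of the 76 with all Han BB above all Dorset values, against 4.27% of all rows.

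MRPS5 and MRPS9, both core proteins of the small subunit with bacterial counterparts, were the 2 genes with every Han BB value below every Dorset value (4.52% of all rows showed this). MRPS5 had 107, 60.8 and 82.0 CPM in D4, D5 and D6, and 58.4, 60.7 and 50.6 CPM in W1, W2 and W4. The gap between D5 and W2 was therefore very small, and without D4 the log2 fold change was -0.34. With all 9 libraries it was -0.56 ± 0.27 (SE; adjusted p 0.977 in edgeR). MRPS9 had 23.5, 27.1 and 29.5 CPM in the Dorset ewes and 21.5, 20.5 and 22.7 CPM in the Han BB ewes, a log2 fold change of -0.31 ± 0.24. In RefSeq the MRPS5 gene overlaps LOC101117493, which had at most 7 reads in any library here.

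MRPL24.1 and MRPS24 had the lowest and the highest log2 fold change of this comparison, and both varied widely between ewes of a group. MRPL24.1 had 7.88, 3.16 and 0.61 CPM in D4, D5 and D6 and 1.90, 1.33 and 0.60 CPM in W1, W2 and W4, for a log2 fold change of -1.58 ± 0.81 (SE; adjusted p 0.977 in edgeR). Its 95% interval ran from -3.37 to 0.22, and without D4 the log2 fold change was -0.56. MRPS24, the mitochondrial counterpart of a bacterial protein at the mRNA entry channel, had the highest at 0.68 ± 0.84, with D6 and W4 both far below the rest of their groups, and ran from 0.16 without D6 to 1.70 without D4. MRPL22, a protein of the large subunit's exit tunnel in bacteria, was at 0.51 ± 0.30, and MRPL48, found only in mitochondria, at 0.42 ± 0.28. MRPS25, a small subunit protein found only in mitochondria, was at -0.40 ± 0.54, which turned to 0.05 without D4.

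**Figure D3:**
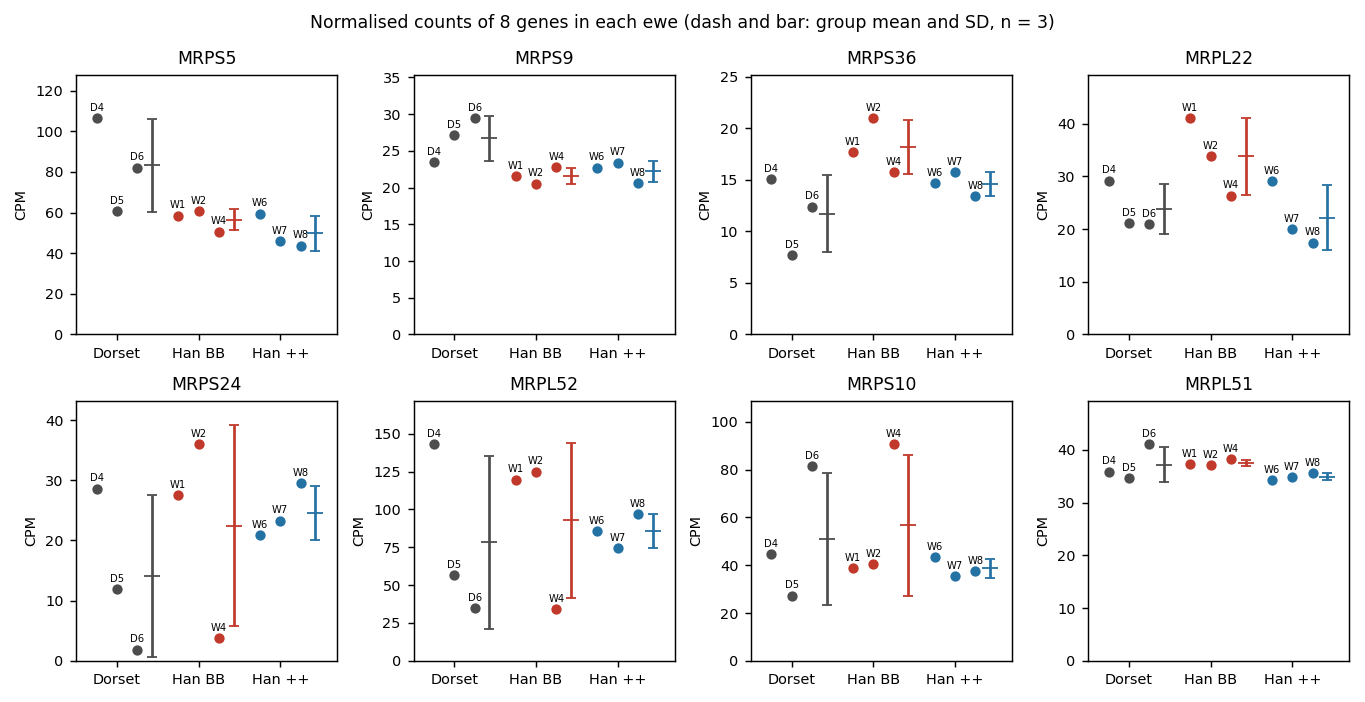
CPM of 8 genes in each ewe, 1 point per library, with the group mean and SD (n = 3) beside the points. MRPS5 and MRPS9 are highest in Dorset, MRPS36 in Han BB, MRPS24 and MRPL52 are lowest and MRPS10 highest in W4 and D6, and MRPL51 lies between 34.3 and 41.1 CPM in all 9 ewes.

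More of the genes lay lower than higher in Han ++ ewes than in Dorset ewes. In this comparison, which shares its Dorset libraries with the one above, 0 of the 76 genes were called by edgeR, DESeq2 or limma voom. Over all rows edgeR called 0.00593% (1 row), DESeq2 65 rows and limma voom 0. The log2 fold change was below 0 for 51 and above 0 for 25 (32.9%), against 44.1% of all rows above 0. Its median was -0.09 against -0.06 for all rows. Without D4 the median was 0.098 and without D5 it was -0.21, and limma voom with quality weights gave 0.086.

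MRPS5 had the lowest log2 fold change of this comparison. It was also the only 1 of the 76 at an unadjusted p under 0.05 in edgeR. Over all rows, 2.66% were lower at that level and 2.61% were higher, where 0 of the 76 stood. DESeq2 also placed 1 gene under that level (4.63% of all rows) and limma voom 0 (9.78% of all rows). The Han ++ ewes W6, W7 and W8 had 59.4, 46.0 and 43.7 CPM, all below the lowest Dorset ewe at 60.8 CPM. The log2 fold change was -0.74 ± 0.28 (SE; 95% interval -1.35 to -0.14), with an adjusted p of 0.874 in edgeR's quasi-likelihood test (unadjusted 0.021). It stayed between -0.92 and -0.53 with any single library left out. Across the 3 groups together MRPS5 was likewise the only 1 of the 76 at an unadjusted p under 0.05 (3.94% of all rows), at 0.0471 with an adjusted p near 1, and 0 of the 76 (0% of all rows) were called.

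Besides MRPS5, the genes MRPS9, MRPL55 and MRPL20 had every Han ++ value below every Dorset value, which made 4 of 76 (5.26%) against 5.59% of all rows, and 0 of 76 were above (5.47% of all rows). MRPL20, a large subunit protein with a bacterial counterpart, had 32.4, 34.6 and 32.5 CPM in W6, W7 and W8 and 59.9, 34.8 and 48.5 CPM in D4, D5 and D6, so the separation rested on a narrow gap between W7 and D5. Its log2 fold change was -0.52 ± 0.28 (SE; adjusted p near 1 in edgeR). MRPS15 at -0.53, MRPS26 at -0.44 and MRPL55 at -0.37 were of similar size with SEs of 0.25 to 0.32, but without D6 MRPS15 was at -0.17 and MRPS26 at -0.12. At the other end stood MRPS24 at 0.81 ± 0.85, MRPL41 at 0.44 ± 0.59 and MRPL50 at 0.40 ± 0.34, none of them separated between groups. MRPL41 turned to -0.013 when a term for W4 and D6 was added to the fit, and MRPL24.1, at -0.66 ± 0.79, turned to 0.36 without D4.

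**Figure D4:**
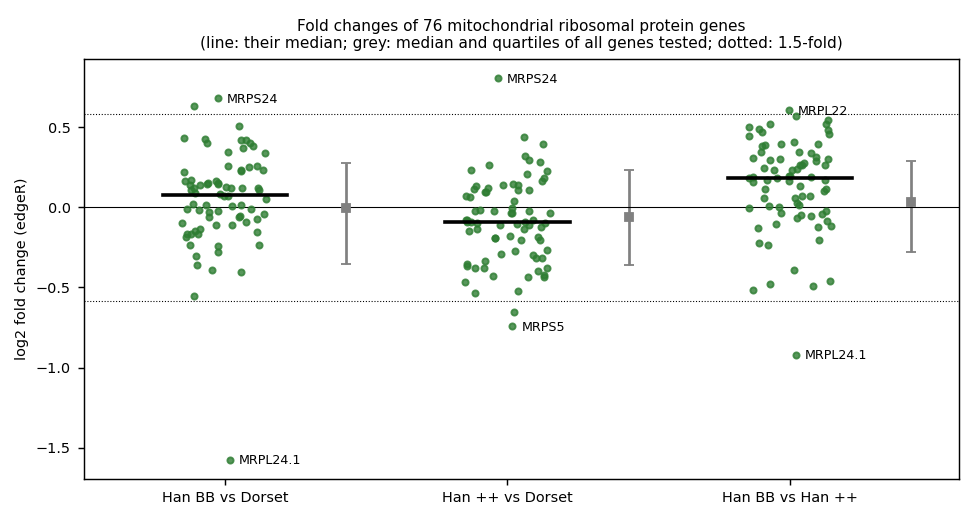
Log2 fold changes of the 76 tested rows in the 3 comparisons (edgeR, 1 green point per row, black line at their median), with the median and quartiles of all 16871 rows in grey and the 1.5-fold limits dotted. The members' median is 0.08, -0.09 and 0.19 from left to right, and most points lie within the dotted lines.

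Within the Small Tail Han breed, most mitoribosomal protein genes lay somewhat higher in Han BB than in Han ++. The log2 fold change was above 0 for 55 of 76 (72.4%), against 53.4% of all rows, with a median of 0.19 against 0.04. This median ranged from 0.071 without W1 to 0.24 without W4, and was 0.24 without W4 and D6. It was smaller than the SD of 0.28 between ewes of a group in their median level of these genes. edgeR, DESeq2 and limma voom each called 0 of the 76. Over all rows edgeR called 0%, and DESeq2 and limma voom 2 rows each. At an unadjusted p under 0.05 edgeR placed 0 genes in either direction (0.877% of all rows higher and 1.09% lower), DESeq2 0 (2.21% of all rows) and limma voom 6, or 7.89% (7.26% of all rows).

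In all, 9 of the 76 genes had every Han BB value above every Han ++ value (11.8%), against 4.78% of all rows, and 0 had the reverse (4.59% of all rows). They were MRPL1, MRPL20, MRPL42, MRPL47 and MRPL51 of the large subunit, MRPS15, MRPS22 and MRPS23 of the small subunit, and MRPS36. These counts used TMM factors (0.9437 for W4 and 1.054 for W7) and depended on the scale. With library totals W4 falls below W7 for MRPL20, MRPL51 and MRPS36. On that scale W2 falls below W7 for MRPL1 and below W6 for MRPL42. MRPL47, MRPS15, MRPS22 and MRPS23 stay separated, and the share of all rows on that scale was not computed. MRPS23, a small subunit protein found only in mitochondria, had 67.4, 66.3 and 62.0 CPM in W1, W2 and W4 and 50.7, 43.4 and 47.3 CPM in W6, W7 and W8. Its group means were 65.2 ± 2.82 and 47.1 ± 3.65 CPM (SD, n = 3), for a log2 fold change of 0.47 ± 0.24 (SE; 95% interval -0.06 to 1.00; adjusted p 0.9995 in edgeR, unadjusted 0.0763). It stayed between 0.43 and 0.54 with any single library left out.

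For several others of the 9, W4 was the highest Han BB ewe by far. MRPL1, which in bacteria binds near the exit site for tRNA, had 33.8, 29.9 and 56.0 CPM in W1, W2 and W4 and 27.5, 28.0 and 24.96 CPM in W6, W7 and W8. Its log2 fold change of 0.57 ± 0.35 (SE) became 0.24 without W4. MRPS10, which overlapped between the groups, went from 0.55 ± 0.43 to 0.025 without W4. The lowest unadjusted p of this comparison belonged to MRPL22, at 41.1, 33.9 and 26.4 CPM in W1, W2 and W4 against 29.1, 19.9 and 17.4 CPM in W6, W7 and W8. W4 lay below W6, and the log2 fold change was 0.61 ± 0.30 (SE; adjusted p 0.9995 in edgeR, unadjusted 0.0679). MRPL46 was at 0.52 ± 0.31 and MRPS28 at 0.48 ± 0.28, whereas MRPL24.1 at -0.92 ± 0.81, MRPL36 at -0.52 ± 0.68 (-0.043 without W4) and MRPL50 at -0.49 ± 0.34 were lowest.

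Grouped by role, the 4 classes of mitoribosomal proteins gave similar medians. Han BB against Han ++, the median log2 fold change was 0.23 for large subunit proteins with a bacterial counterpart (24 of 31 above 0), 0.12 for those found only in mitochondria (14 of 19), 0.17 for small subunit proteins with a bacterial counterpart (10 of 15) and 0.29 for those found only in mitochondria (6 of 10). Against Dorset, the Han BB medians were 0.11, 0.012, 0.07 and 0.12 in the same order. The Han ++ medians were -0.10, -0.02, -0.08 and -0.24. No class held a called gene in any comparison in edgeR, DESeq2 or limma voom. Over all rows these called at most 1, 65 and 2 in a comparison. The only class with a gene at an unadjusted p under 0.05 in edgeR was the one of MRPS5. In that comparison, Han ++ against Dorset, 2.66% of all rows were lower at that level.

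A missing call leaves wide room for most of these genes, since the SE of the log2 fold change had a median of 0.34 and ran from 0.22 to 0.85. The 95% interval lay wholly within 1.5-fold either way for 3 genes in Han BB against Dorset (0.83% of all rows), for 3 in Han ++ against Dorset (0.854%) and for 2 in Han BB against Han ++ (1.11%). MRPS27, a small subunit protein found only in mitochondria, was among them in each comparison. The others were MRPS6 and MRPL51 in the first, MRPL42 and MRPL51 in the second and MRPS9 in the last. MRPL51, a large subunit protein found only in mitochondria, was the steadiest of all, with an SD of 0.08 on the log2 CPM scale over the 9 ewes. It had 35.9, 34.7 and 41.1 CPM in the Dorset ewes, 37.4, 37.1 and 38.3 in the Han BB ewes and 34.3, 34.8 and 35.6 in the Han ++ ewes. Its log2 fold change against Dorset was 0.01 in Han BB (95% interval -0.47 to 0.50) and -0.09 in Han ++ (-0.58 to 0.39).

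Another contrast among the mitoribosomal protein genes ran across the groups, between W4 and D6 on 1 side and the other 7 libraries on the other. Since these libraries were singled out from the data, their values are a description and carry no test. In 26 of the 76 genes both W4 and D6 lay below all 7 others (34.2%), against 17.2% of all rows. In 13 genes both lay above (17.1%), against 18.6% of all rows. Only the lower side was thus more frequent among these genes than over all rows, and the shares were not tested against each other.

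MRPS24 showed the lowest values, with 3.81 CPM for W4 and 1.84 for D6. It had 27.5 and 36.0 CPM in W1 and W2, 20.8, 23.3 and 29.5 CPM in W6, W7 and W8, and 28.6 and 11.9 CPM in D4 and D5. On the log2 scale the mean of W4 and D6 was 3.17 below that of the other 7, and its SD of 1.49 over the 9 ewes was the widest of the family. MRPL36, the counterpart of the smallest bacterial large subunit protein, stood at 2.48 and 4.41 CPM in W4 and D6 and at 14.7 to 25.01 CPM elsewhere. MRPL52, a large subunit protein found only in mitochondria and among the 5 with the most CPM, reached 34.0 and 34.7 CPM in these libraries, whereas the others held 56.8 to 143 CPM.

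In the other direction, MRPS10, a small subunit protein with a bacterial counterpart, stood at 90.7 CPM for W4 and 81.5 for D6. The other 7 libraries had 27.3 to 44.6 CPM, so the difference in mean log2 CPM was 1.18. MRPS35 (86.3 and 73.6 CPM against 32.5 to 43.6) and MRPS31 (62.7 and 59.5 CPM against 20.9 to 35.9), both small subunit proteins found only in mitochondria, had differences of 1.10 and 1.08. MRPL1 had the largest of the large subunit proteins, at 0.92. Within 1 pair of ewes, genes of the same complex were thus displaced in opposite directions by up to 4.36 on the log2 scale. Such a spread was not particular to the complex. Over all rows the difference of W4 and D6 from the other 7 ran from -10.38 to 7.02, with quartiles of -0.75 and 0.52. For the 76 genes the quartiles were -0.68 and 0.19.

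By class, the median difference of W4 and D6 from the other 7 was -0.31 for large subunit proteins with a bacterial counterpart, where 10 of 31 lay below and 4 above. It was -0.36 for large subunit proteins found only in mitochondria, with 8 of 19 below and 1 above, the exception being MRPL51. Small subunit proteins with a bacterial counterpart had a median of 0.0083, with 4 of 15 below and 3 above, and those found only in mitochondria had 0.35, with 4 of 10 below and 5 above. The median of all rows was -0.07. MRPS36 lay within the range of the other libraries in both. Base composition and length of the transcripts, and RNA quality, were not analysed here, so their part in this difference was not tested.

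**Figure D5:**
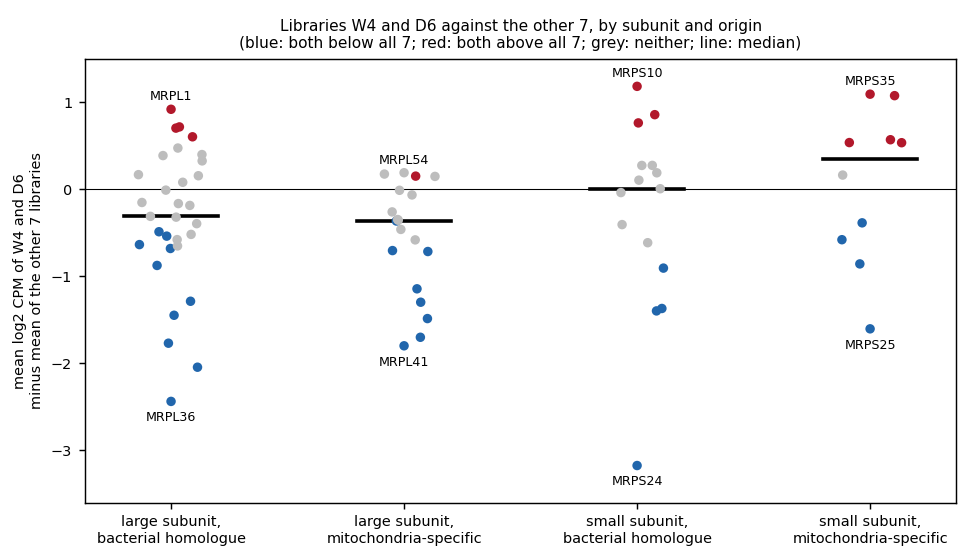
Mean log2 CPM of W4 and D6 minus the mean of the other 7 libraries for each tested ribosomal protein gene, by subunit and origin, with the class median as a line. Blue points are genes for which both libraries lie below all 7 others, red points those for which both lie above. The lowest is MRPS24 (-3.17), the highest MRPS10 (1.18), and the class medians run from -0.36 to 0.35.

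The mitoribosomal protein genes MRPS22, MRPS7 and MRPL50, belong to the genes whose variants are known from ovarian insufficiency in people. MRPS22, found only in mitochondria, had 40.1, 47.4 and 65.2 CPM in W1, W2 and W4, 37.4, 37.1 and 36.8 CPM in W6, W7 and W8, and 50.0, 35.3 and 54.8 CPM in D4, D5 and D6. All Han BB ewes were above all Han ++ ewes, which differed from each other by under 1 CPM, while W4 and D6 were the highest of the 9. Its log2 fold change, Han BB against Han ++, was 0.46 ± 0.27 (SE; adjusted p 0.9995 in edgeR) and 0.23 without W4. MRPS7, a small subunit protein with a bacterial counterpart, was lowest in W4 (9.57 CPM) and D6 (13.1 CPM) with 16.3 to 27.0 CPM elsewhere, and its log2 fold changes lay between -0.06 and 0.23 with an SE of 0.39. MRPL50, of the large subunit, had 16.4 to 24.3 CPM in Han ++, 12.2 to 17.0 in Han BB and 10.6 to 23.8 in Dorset, so these groups overlapped.

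The same list also holds LARS2, HARS2 and AARS2 (row AARS2.1), which charge mitochondrial tRNAs with leucine, histidine and alanine, ERAL1, a chaperone of small subunit ribosomal RNA, and CLPP, a matrix protease. With the 3 genes above, 8 rows of the list were tested and 0 were called in any comparison by edgeR (at most 0.00593% of all rows). Its medians were -0.03 for Han BB against Dorset, 0.02 for Han ++ against Dorset and -0.05 for Han BB against Han ++. HARS2 stood at 132 CPM in both W4 and D6 and at 39.6 to 61.8 CPM in the other 7. ERAL1 was lowest in the same libraries, at 7.56 and 10.2 CPM against 14.01 to 25.6 CPM.

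A further 7 mitoribosomal proteins carry other symbols, namely DAP3, PTCD3, CHCHD1 and AURKAIP1 of the small subunit and GADD45GIP1, ICT1 (the older symbol of MRPL58) and MRP63 (that of MRPL57) of the large one. Their median log2 fold changes, 0.17 for Han BB against Dorset, -0.0068 for Han ++ against Dorset and 0.14 for Han BB against Han ++, stood beside 0.08, -0.09 and 0.19 for the 76. None of the 7 passed the test in edgeR, at either the adjusted level (at most 0.00593% of all rows) or the unadjusted level (at most 5.27%). GADD45GIP1 had the lowest unadjusted p, with 44.6, 34.1 and 33.7 CPM in D4, D5 and D6 and 29.9, 28.1 and 24.0 CPM in W1, W2 and W4, for a log2 fold change of -0.45 ± 0.24 (SE; adjusted p 0.977 in edgeR). ICT1, a peptidyl-tRNA hydrolase built into the large subunit, was at 20.8 and 34.5 CPM in W4 and D6 against 62.5 to 112 CPM elsewhere.

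Genes that build or serve the mitoribosome were compared in the same way. Tested were 22 assembly and rRNA modification factors, 11 translation factors, 18 tRNA charging enzymes and 12 genes of mitochondrial transcription and RNA maturation. Of these, 0 were called in any comparison by edgeR (at most 0.00593% of all rows). At an unadjusted p under 0.05 stood 1, higher in Han ++ than in Dorset, where 2.61% of all rows were higher at that level. That gene was MTFMT, which formylates the initiator methionyl-tRNA, with 26.1, 34.0 and 39.4 CPM in W6, W7 and W8 and 19.9, 22.04 and 13.2 CPM in D4, D5 and D6. The Han ++ ewes were all above the Dorset ewes, for a log2 fold change of 0.85 ± 0.35 (SE; adjusted p 0.891 in edgeR, unadjusted 0.0314). VARS2, which charges tRNA with valine, was at -0.65 ± 0.30 in Han BB against Dorset (adjusted p 0.9751 in edgeR). NGRN, an rRNA binding protein, had the lowest unadjusted p among the assembly factors (0.49 ± 0.27, Han BB against Han ++) and MTERF among the transcription genes (0.91 ± 0.50, Han BB against Dorset).

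For Han BB against Han ++ the medians of these lists were 0.16 for assembly factors (15 of 22 above 0), 0.18 for translation factors (8 of 11), 0.15 for tRNA charging enzymes (13 of 18) and 0.18 for transcription and RNA maturation (10 of 12), close to the 0.19 of the ribosomal proteins. In W4 and D6 their medians differed. Assembly factors had a median difference of -0.44 from the other 7 libraries, with 8 of 22 below and 4 above. The tRNA charging enzymes were at -0.02, with 1 of 18 below and 5 above. Translation factors were at 0.58, with 1 of 11 below and 4 above, and transcription genes at 0.50, with 2 of 12 below and 5 above, such as TRMT10C, a subunit of mitochondrial RNase P, with 90.4 and 70.3 CPM in W4 and D6 versus 24.2 to 40.2 CPM elsewhere.

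Cytosolic ribosomal proteins and nuclear complex I subunits, which assemble with proteins made by mitoribosomes, were set beside the family. In Han BB against Han ++ the median log2 fold change was 0.25 for the 64 cytosolic ribosomal proteins (57 above 0) and 0.08 for the 35 complex I subunits (21 above 0), and in Han BB against Dorset it was 0.30 (60 above 0) and 0.15 (28 above 0). Han ++ against Dorset gave -0.0017 and 0.08. W4 and D6 both lay below all other libraries in 29 of the 64 (45.3%) and 19 of the 35 (54.3%), and above in 4 and 1. The lower side was thus at least as frequent in these lists as in the mitoribosomal proteins, and the upper side was less frequent, at 6.25% and 2.86% against 17.1%; these shares were not tested against each other.

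A few members lie beside each other or beside a gene of the same pathway in the RefSeq assembly. MRPL46 and MRPS11 are neighbours. Both were high in W1 and W2, at 66.7 and 69.6 CPM for MRPS11 and 22.3 and 19.1 CPM for MRPL46. In D4, however, MRPS11 was at its highest with 90.3 CPM and MRPL46 had only 13.2 CPM. MRPS11 was lowest in W4 and D6 (20.5 and 24.2 CPM against 40.2 to 90.3), whereas MRPL46 had 11.6 and 12.96 CPM there against 10.2 to 22.3. MRPS12, a protein of the decoding centre in bacteria, overlaps SARS2, the seryl-tRNA synthetase of mitochondria. MRPS12 had 7.49 and 10.7 CPM in W4 and D6 and 7.60 to 19.8 CPM elsewhere, and SARS2 had 11.3 and 14.4 CPM against 11.9 to 21.2. Of the 72 matched symbols, 24 overlap another gene in that assembly, and without a stated strand setting reads of overlapping genes cannot be told apart.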

How the data were processed

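Whole ovary RNA of 9 ewes was sequenced on an Illumina instrument. The authors aligned the reads to Oar_v3.1 with TopHat, kept uniquely mapped reads, and deposited raw read counts per gene and library. The labels name a TruSeq RNA kit and the methods a stranded total RNA kit with rRNA removal. How reads were counted, and with which strand setting, is not given in the sources used here.

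The main analysis used edgeR 4.0.16 under R 4.3.3 (TMM factors, filter by group, quasi-likelihood test on 1 fit of all 9 libraries with group as the factor, Benjamini-Hochberg over 16871 rows). CPM are counts scaled to library size with TMM factors. DESeq2 1.42.0, limma 3.58.1 (voom with quality weights), other size factors, other filters, fits of 2 groups and leaving out each library were alternatives. Fits without W4 and D6, a term for W4 and D6, adding up rows of a symbol and a library total without LOC101101865 were chosen after seeing the data. The scripts were tested on simulated data. Plots used Python 3.11.15 and matplotlib 3.10.9.

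Members and gene lists were chosen with earlier results of these data known. Genes were named by rule: per comparison the 3 highest and 3 lowest log2 fold changes and up to 5 lowest p; the 5 highest (MRPL39, MRPL52, MRPL49, MRPL9.1, MRPS21) and 3 lowest mean CPM (MRPL24.1, MRPL41, MRPL16); the 3 widest and 3 narrowest SDs; the ovarian insufficiency list; untested rows; MRPS18A, MRPS18B, MRPS18C and MRPS36; and the lowest p of each other list. Genes named as not overlapping between groups, or for W4 and D6 or neighbouring genes, and MRP63 as a list member, were chosen after their values were seen. Levels are not compared between genes, since lengths were not used. Promoter motifs and sequences were not analysed here.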

Additional observations from a re-analysis of the deposited data

How the results depend on the processing

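The count of called mitoribosomal protein genes was 0 in all comparisons under every alternative run with edgeR, DESeq2 or limma voom, although edgeR's single call over all rows for Han ++ against Dorset became 65 with DESeq2, 11 without a filter, 22 without W4 and D6 and 78 with a term for W4 and D6. Members at an unadjusted p under 0.05 numbered 3, 2 and 5 (in the order Han BB over Dorset, Han ++ over Dorset and Han BB over Han ++) without W4 and D6, or 3.9%, 2.6% and 6.49% against 7.37%, 8.87% and 3.41% of all rows. With the term they numbered 3, 7 and 4, or 3.95%, 9.21% and 5.26% against 10.7%, 12.5% and 3.68% of all rows. Over the fits that left out 1 library the median log2 fold change ranged from -0.077 to 0.27, from -0.21 to 0.098 and from 0.071 to 0.24. Each stayed within 1 SD between ewes (0.28) of its main value. That SD is the spread of single ewes and not of a difference between groups, and the first 2 medians changed sign. The direction turned for 3 named values: MRPS25 in Han BB against Dorset, which ran from -0.90 to 0.050 over these fits (0.050 without D4), MRPL24.1 in Han ++ against Dorset, from -1.16 to 0.36 (0.36 without D4), and MRPL41 in Han ++ against Dorset, at -0.013 with the term for W4 and D6. The causes were not tested. No paired analysis was made, because each library came from a different ewe and each ewe belonged to 1 group. With 3 ewes a group, the spread between ewes (biological coefficient of variation 0.472) limits precision, and at 9 to 81 reads MRPL24.1 is limited by depth as well.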
